A study of Homo sapiens with 4 samples.

Results

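The expression of 10 genes for amino acid transporters of the plasma membrane was followed in THP-1 cells, an established human monocytic leukaemia line, after knockdown of PIWIL4. The members were taken by gene name, with earlier results of these data known: SLC1A4, SLC1A5, SLC3A2, SLC7A1, SLC7A5, SLC7A6, SLC7A7, SLC38A1, SLC38A2 and SLC43A2. All 10 were found among the 25680 gene names of the 4 count tables. All 10 passed the filter on low counts, which left 16108 genes for testing. RNA-seq libraries were made from cells transduced with a lentivirus carrying a scrambled short hairpin RNA (Scrambled, libraries 1 and 2) or one carrying a hairpin against PIWIL4 (shPIWIL4, libraries 1 and 2). The transduced cells of both groups were sorted by flow cytometry 48 hours after transduction. The series asks which genes change their expression in acute myeloid leukaemia cells when PIWIL4 is depleted. The labels name 1 hairpin against PIWIL4 and 1 cell line. They mark the 2 libraries of a group exp. rep1 and exp. rep2, and do not state how these libraries were obtained. The spread between them may be technical. The p-values rest on such spread, with that of each gene drawn toward the trend over all genes tested. Libraries were grouped by their titles, since the treatment label of the shPIWIL4 libraries also holds the word scrambled.

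The carriers by which cells take up amino acids include some that import them with sodium and some that exchange an amino acid for another. SLC38A1 and SLC38A2 are sodium-coupled importers of glutamine and other small neutral amino acids, SLC1A5 and SLC1A4 are exchangers of glutamine and of alanine, serine and cysteine, and SLC7A1 brings in arginine and lysine. SLC3A2 is the heavy chain CD98, a glycoprotein that carries light chains such as SLC7A5, SLC7A6 and SLC7A7 to the cell surface. SLC7A5 exchanges glutamine for leucine and other large neutral amino acids, and the leucine that enters activates the growth kinase complex mTORC1 at the lysosome. Several of these genes are known targets of ATF4, a transcription factor that is translated when amino acids are scarce.

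Total counts ranged from 31458079 to 53657246 per library. PIWIL4 had 23.7 and 23.6 TPM (a level scaled for gene length and for the library's total) in Scrambled libraries 1 and 2, and 11.7 and 11.02 TPM in shPIWIL4 libraries 1 and 2. Its log2 fold change was -1.10 (SE 0.09, edgeR adjusted p = 1.3e-05). All 11 myeloid genes checked for THP-1 were at or above 1 TPM in each library. Their summed level was 1228 and 1290 TPM in Scrambled and 3740 and 3584 TPM in shPIWIL4, where LYZ alone had a mean of 2465 TPM against 195 TPM. Of the 11 genes 3 rose (LYZ, CD68 and FCGR1A). Another 4 fell (PTPRC, MPO, CD4 and CSF1R, by 0.94, 0.89, 0.74 and 0.49 on the log2 scale). Together 63.6% were called at an adjusted p under 0.05 in edgeR, against 57.7% of all genes tested. The median log2 fold change of the 11 was -0.0058. Of 13 markers of other cell types, CD3E and COL1A2 were among those at 0 in all libraries. The summed level was 38.7 to 41.6 TPM in Scrambled and 46.7 to 50.9 TPM in shPIWIL4. Most of it came from PECAM1, with means of 34.2 and 46.3 TPM. CDH5, the other endothelial marker listed, had at most 0.028 TPM in any library, so the sum largely follows a single gene. Of the 13 markers 4 could be tested, and all of these were called, 1 higher and 3 lower, against 57.7% of all genes called. The part of these differences in the transporter results was not tested. In bulk libraries, a change in the share of cells in one state and a change in RNA per cell cannot be told apart.

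The transporter genes moved in opposite directions. The exchangers SLC1A5 and SLC1A4, the heavy chain gene SLC3A2, the light chain genes SLC7A6 and SLC7A7, and SLC7A1 and SLC43A2 were higher in shPIWIL4, by 1.16-fold to 1.497-fold. The 2 sodium-coupled importer genes were lower, SLC38A1 by 1.83-fold and SLC38A2 by 1.30-fold. SLC7A5 was not called. In all, 7 of 10 members rose and 2 fell, at an adjusted p under 0.05 (edgeR, quasi-likelihood F test, Benjamini-Hochberg over all genes tested). Among all genes tested, 57.7% were called, 28.7% higher and 29.1% lower. The groups did not overlap in CPM (counts scaled by library size and TMM factor) for 9 of 10 members, against 78.6% of all genes tested. The median log2 fold change was 0.37 over the members and -0.0034 over all genes. The list was chosen with earlier results of these data known, so these values describe it and do not test it. Of 267 tested genes whose name begins with SLC and a digit, 93 were higher and 85 lower, with a median of 0.05. When 1 library is left out its group keeps a single library, so the spread comes from the other group alone, and a call can change through that spread with the fold nearly unchanged. Without Scrambled library 2 the members' counts were 4 higher and 1 lower, and without shPIWIL4 library 1 they were 6 and 3. Scaled by upper quartiles, 5 members rose and 2 fell. That scaling moved the median of all genes to -0.12, and all genes called to 3446 higher and 5717 lower, against 4618 and 4683.

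**Figure D1:**
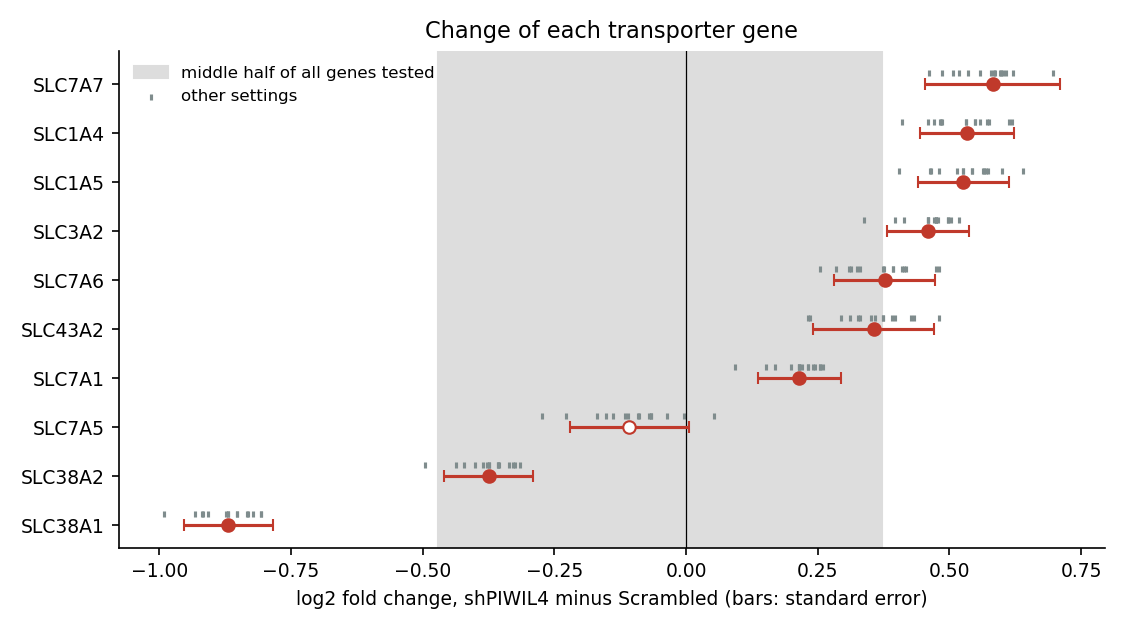
Log2 fold change of each transporter gene, shPIWIL4 minus Scrambled, with its standard error (n = 2 libraries per group). Filled points passed an adjusted p under 0.05, grey ticks give the value under the other settings, and the grey band spans the quartiles of all genes tested, -0.47 to 0.37. SLC38A1 at -0.87 lies outside the band on the left, and 5 members lie at or beyond its right edge.

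The promoter windows of the members were searched for letters of elements linked to amino acid supply. RefSeq lists 20 windows for the 10 members, each from 250 bases before a transcript start to the 50 bases that begin with it (GRCh38.p14). The letters TGATGNAA, the core of the composite element bound by C/EBP and ATF proteins, were searched on both strands. They were found in 1 window each of 5 members, and in 3.62% of all windows of this length (4.46% of genes). The 30 bases around each match are shown to let the 5 be compared, 5′ to 3′ on the gene's strand, with the match in capitals.
SLC7A1 (chr13:29595663-29595692, minus strand): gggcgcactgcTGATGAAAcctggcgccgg
SLC3A2 (chr11:62881719-62881748, plus strand): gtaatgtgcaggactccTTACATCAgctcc
SLC1A4 (chr2:64989381-64989410, plus strand): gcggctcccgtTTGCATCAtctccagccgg
SLC1A5 (chr19:46784893-46784922, minus strand): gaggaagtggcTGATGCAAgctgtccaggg
SLC38A1 (chr12:46266502-46266531, minus strand): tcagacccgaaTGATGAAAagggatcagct
In SLC3A2 and SLC1A4 the letters lie on the opposite strand and read as their reverse complement. Counted from the start base, the SLC1A4 match covers -7 to 0 and the SLC38A1 match -4 to 3, at one of 2 listed starts. The SLC7A1 and SLC3A2 matches begin 7 and 37 bases after the start, and SLC3A2 also has listed starts without a match. The SLC1A5 match begins 97 bases before its start, which is one of 3 listed for the gene. Of these 5 genes 4 were higher and SLC38A1 was lower in shPIWIL4, against 7 higher and 2 lower over all 10 members. Sequence outside the windows was not searched, and a part of the letters in these changes was not tested.

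The E-box CACGTG is bound by MYC with MAX and by MiT/TFE factors, and reads the same on both strands. It was found in 1 window each of SLC7A5, SLC7A7 and SLC1A5, and in 7.26% of all windows (8.77% of genes). SLC7A7 and SLC1A5 also have listed windows without it. SLC7A5 has a single listed window, and its match begins 130 bases before the start.
SLC7A5 (chr16:87869620-87869649, minus strand): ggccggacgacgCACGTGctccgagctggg
SLC7A7 (chr14:22816079-22816108, minus strand): agaatgaaaaggCACGTGggtctggtgggg
SLC1A5 (chr19:46787326-46787355, minus strand): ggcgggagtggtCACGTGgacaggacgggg
These 3 sequences belong to 2 genes that rose and 1 that was not called. A match describes the letters in the window and is not evidence of binding in these cells.

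SLC38A1, which imports glutamine with sodium, showed the largest change among the members. Its level was 58.0 and 62.3 TPM in Scrambled libraries 1 and 2, and 33.3 and 34.6 TPM in shPIWIL4 libraries 1 and 2. Both shPIWIL4 libraries were well below both Scrambled libraries. The means were 60.1 ± 3.0 and 33.9 ± 0.92 TPM (SD, n = 2 each). The gene fell by 0.87 on the log2 scale of TMM-scaled counts (SE 0.08, edgeR adjusted p = 3.1e-05), a change larger than that of 64.98% of all called genes. SLC38A2, its neighbour on chromosome 12 and a paralog that cells are known to induce when amino acids run short, had 123 and 136 TPM in Scrambled and 104 and 102 TPM in shPIWIL4. It too was lower in both shPIWIL4 libraries, and by less. SLC38A2 fell by 0.37 (SE 0.08, edgeR adjusted p = 0.0042). Without Scrambled library 2 its log2 fold change was -0.32 with an adjusted p of 0.074 in edgeR. The ratio of SLC38A1 to SLC38A2 in TPM, which does not depend on how libraries are scaled, was 0.472 and 0.457 in Scrambled and 0.319 and 0.340 in shPIWIL4. The groups did not overlap, and the exact permutation test gave p = 0.333, the smallest that 2 against 2 libraries allow.

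The exchanger genes of the SLC1 family both rose, by like amounts when all libraries were used. SLC1A5, the glutamine exchanger also called ASCT2, had 77.0 and 83.8 TPM in Scrambled libraries 1 and 2 and 127 and 112 TPM in shPIWIL4 libraries 1 and 2. Both shPIWIL4 libraries lay above both Scrambled libraries. It rose by 0.53 (SE 0.09, edgeR adjusted p = 6.7e-04). SLC1A4, which exchanges alanine, serine and cysteine, had 26.9 and 25.7 TPM in Scrambled and 37.8 and 40.7 TPM in shPIWIL4. The groups were separate, and SLC1A4 rose by 0.53 (SE 0.09, edgeR adjusted p = 8.0e-04). Without shPIWIL4 library 1 the log2 fold changes were 0.62 for SLC1A4 and 0.46 for SLC1A5. Without shPIWIL4 library 2 they were 0.46 for SLC1A4 and 0.60 for SLC1A5. The ratio of SLC1A4 to SLC1A5 was 0.328 ± 0.031 in Scrambled and 0.331 ± 0.048 in shPIWIL4 (SD, n = 2 each) and overlapped between the groups. SLC1A5 against SLC38A1, both carriers of glutamine, went the other way. Their ratio was 1.33 and 1.35 in Scrambled and 3.83 and 3.23 in shPIWIL4, a 2.64-fold difference of the means. SLC1A5 was above SLC38A1 in every library, by a wider margin in both shPIWIL4 libraries.

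**Figure D2:**
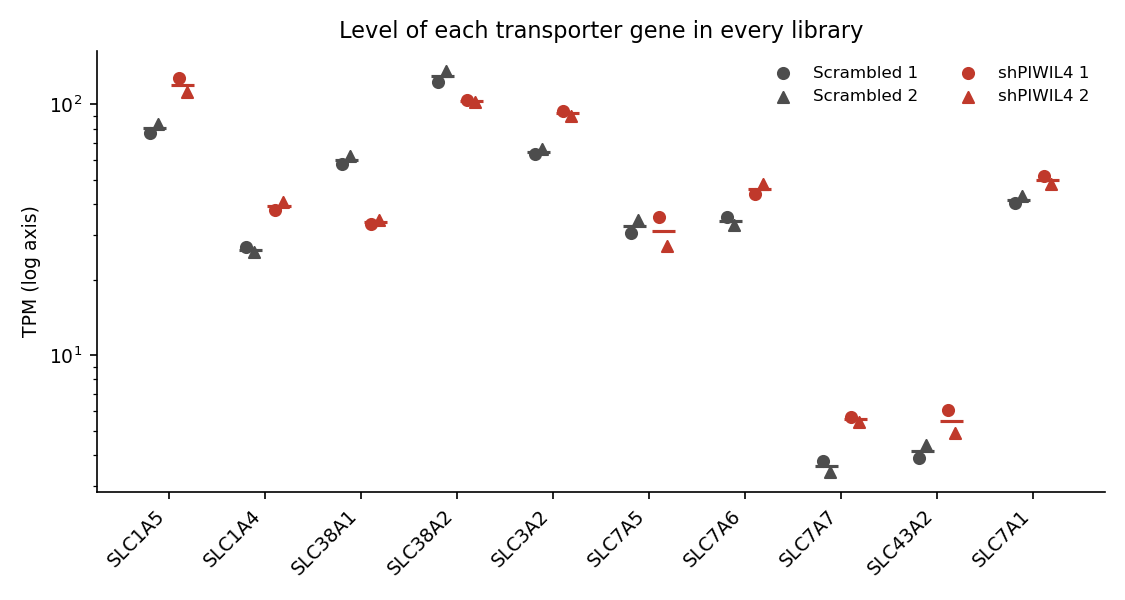
Level of each transporter gene in TPM (log axis) in Scrambled libraries 1 and 2 (grey) and shPIWIL4 libraries 1 and 2 (red), with a line at each group mean. SLC38A1 drops from 60.1 to 33.9 TPM while SLC1A5 rises from 80.4 to 120 TPM, and the 4 values of SLC7A5 overlap between 27.2 and 35.4 TPM.

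The heavy chain gene rose, and the light chain gene of the leucine exchanger was not called. The difference between the 2 genes was not tested. SLC3A2 had 63.2 and 66.5 TPM in Scrambled libraries 1 and 2, and 94.3 and 89.8 TPM in shPIWIL4 libraries 1 and 2. All shPIWIL4 values lay above the Scrambled ones, and SLC3A2 rose by 0.46 (SE 0.08, edgeR adjusted p = 8.2e-04). SLC7A5 had 30.7 and 34.5 TPM in Scrambled and 35.4 and 27.2 TPM in shPIWIL4. The shPIWIL4 libraries held both the highest and the lowest value of SLC7A5, so the groups overlapped. Its log2 fold change was -0.11 (SE 0.11, edgeR adjusted p = 0.44). It was -0.27 without shPIWIL4 library 1 (edgeR adjusted p = 0.0045) and 0.05 without shPIWIL4 library 2, so that its sign depended on the library left out. The pseudogenes SLC7A5P1 and SLC7A5P2 resemble SLC7A5 and can share its reads, and were named after their values were seen. SLC7A5P1 had means of 2.35 and 0.793 TPM in Scrambled and shPIWIL4, and SLC7A5P2 of 1.73 and 0.859 TPM, against 32.6 and 31.3 TPM for SLC7A5.

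The other light chain genes were higher. SLC7A6, which exchanges cationic for neutral amino acids, had 35.5 and 33.2 TPM in Scrambled and 43.7 and 48.2 TPM in shPIWIL4. The groups did not overlap, and it rose by 0.38 (SE 0.10, edgeR adjusted p = 0.0076). Without Scrambled library 2 the value was 0.31 with an edgeR adjusted p of 0.075. SLC7A6OS, a gene that overlaps SLC7A6 in the annotation, had a log2 fold change of 0.38 as well. No strand setting is given, and whether the counts of these genes share reads was not tested. SLC7A7, the light chain whose loss causes lysinuric protein intolerance, was low, with 3.79 and 3.43 TPM in Scrambled and 5.68 and 5.41 TPM in shPIWIL4, from 166 to 377 counts. It had the largest fold among the members that rose, 1.497 (log2 0.58, SE 0.13, edgeR adjusted p = 0.0036). Without Scrambled library 2 it was 0.49 with an edgeR adjusted p of 0.058. SLC3A2 over the summed TPM of SLC7A5, SLC7A6 and SLC7A7 was 0.903 and 0.935 in Scrambled and 1.11 in both shPIWIL4 libraries, a 1.21-fold difference of the means. The groups were separate in this ratio too (exact permutation p = 0.333, the smallest possible here).

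The remaining members changed least among those that rose. SLC7A1, the main importer of arginine and lysine, had 40.5 and 42.9 TPM in Scrambled libraries 1 and 2 and 51.7 and 48.2 TPM in shPIWIL4 libraries 1 and 2. Its groups did not overlap, and it rose by 0.21 (SE 0.08), close to the threshold (edgeR adjusted p = 0.041). Only 0.269% of called genes had a smaller change. SLC43A2, a facilitated carrier of leucine, phenylalanine and methionine, had 3.89 and 4.36 TPM in Scrambled and 6.04 and 4.89 TPM in shPIWIL4. Its groups were close but separate, and it rose by 0.36 (SE 0.11, edgeR adjusted p = 0.024). The calls of both genes were lost when certain libraries were left out. SLC7A1 had an edgeR adjusted p of 0.22 without Scrambled library 1 and 0.18 without Scrambled library 2, at log2 fold changes of 0.22 and 0.24. SLC43A2 had 0.11 without Scrambled library 1 and 0.061 without shPIWIL4 library 1, at 0.33 and 0.23. Scaled by upper quartiles, the log2 fold change was 0.09 for SLC7A1 (edgeR adjusted p = 0.32) and 0.24 for SLC43A2 (edgeR adjusted p = 0.11).

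The order of the levels changed along with them. In Scrambled cells SLC38A2 was highest with a mean of 129 ± 9.5 TPM, followed by SLC1A5 (80.4 ± 4.8), SLC3A2 (64.9 ± 2.3), SLC38A1 (60.1 ± 3.0), SLC7A1 (41.7 ± 1.7), SLC7A6 (34.4 ± 1.7), SLC7A5 (32.6 ± 2.7), SLC1A4 (26.3 ± 0.88), SLC43A2 (4.13 ± 0.33) and SLC7A7 (3.61 ± 0.26; SD, n = 2 each). Of neighbours in this order, SLC7A6 and SLC7A5 overlapped. In shPIWIL4 cells SLC1A5 came first with 120 ± 11 TPM and SLC38A2 next with 103 ± 1.7 TPM, before SLC3A2 at 92.0 ± 3.2 TPM. SLC38A1 went from rank 4 to rank 7, below SLC7A1, SLC7A6 and SLC1A4. SLC7A1 (49.95 ± 2.5) and SLC7A6 (46.0 ± 3.2), neighbours in shPIWIL4, met at 48.2 TPM in library 2 of both. In the same libraries the values of SLC38A1 lay inside the range of SLC7A5, and those of SLC7A7 inside the range of SLC43A2.

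Summed over the 10 genes, the level was 462 and 493 TPM in Scrambled and 540 and 512 TPM in shPIWIL4, a 1.10-fold difference of the means (exact permutation p = 0.333). The make-up differed more. SLC38A1 and SLC38A2 together held 39.1% and 40.3% of the summed TPM in Scrambled and 25.5% and 26.6% in shPIWIL4. The share of SLC38A1 was 12.5% and 12.6% in Scrambled and 6.17% and 6.75% in shPIWIL4. SLC1A5 held 16.7% and 17.0% in Scrambled and 23.6% and 21.8% in shPIWIL4, and SLC3A2 13.7% and 13.5% against 17.5% in both shPIWIL4 libraries. The other 8 genes summed to 282 and 295 TPM in Scrambled and 402 and 376 TPM in shPIWIL4. Over the 10 sums, ratios and shares compared, 8 of them chosen after the levels were seen, the Benjamini-Hochberg adjusted value of the exact permutation test was at least 0.370.

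**Figure D3:**
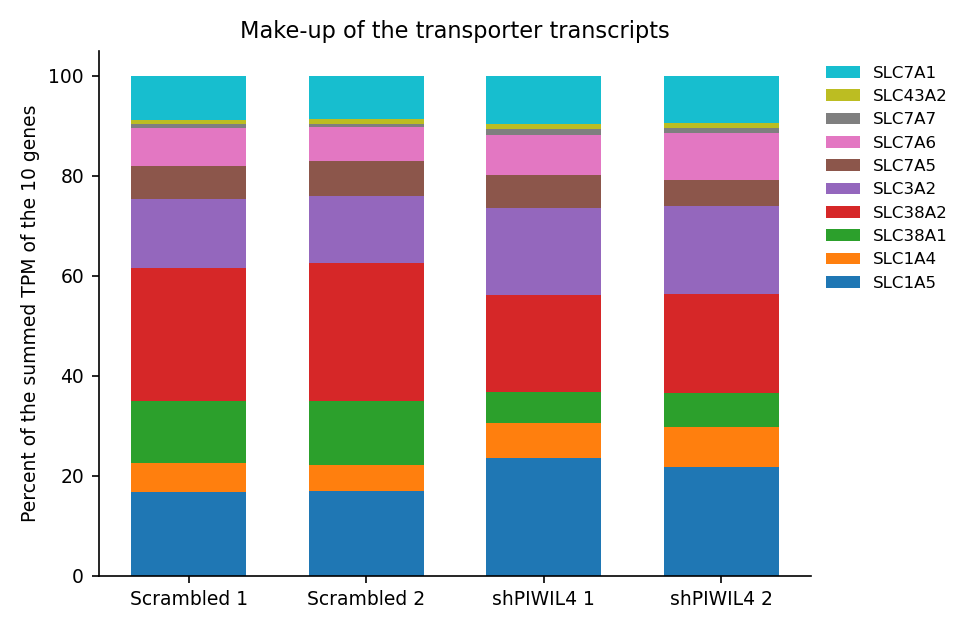
Share of each gene in the summed TPM of the 10 transporter genes, 1 bar per library, in percent. The red and green segments, SLC38A2 and SLC38A1, shrink from 39.1% and 40.3% in Scrambled to 25.5% and 26.6% in shPIWIL4, and the blue segment, SLC1A5, grows.

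Between the replicates, the ratio of levels moved with the base composition of the transcript. Over 9251 genes averaging 10 CPM or more, the log2 ratio of shPIWIL4 library 2 to library 1 had a Pearson correlation of -0.573 with the GC content of the longest annotated transcript, and that of Scrambled library 2 to library 1 a correlation of 0.166. Genes are not independent replicates, and the points share the 2 libraries. SLC7A5 and SLC1A5 are rich in GC at 61.1% and 61.3%, above 87.8% and 88.3% of genes, and SLC43A2 has 58.5%. Their log2 ratios of shPIWIL4 library 2 to library 1 were -0.33, -0.14 and -0.25. SLC38A1, SLC1A4 and SLC7A6, with 41.3%, 46.5% and 47.0% GC, had log2 ratios of 0.11, 0.16 and 0.19. SLC38A2 at 38.1% and SLC3A2 at 57.4% were close to 0, at 0.02 and -0.02. With an offset that removes the trend with GC from each library, 7 members were higher and 2 lower as before. SLC7A5 then had a log2 fold change of -0.0031 (edgeR adjusted p = 0.96), SLC1A5 of 0.64, SLC1A4 of 0.48 and SLC38A1 of -0.91.

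**Figure D4:**
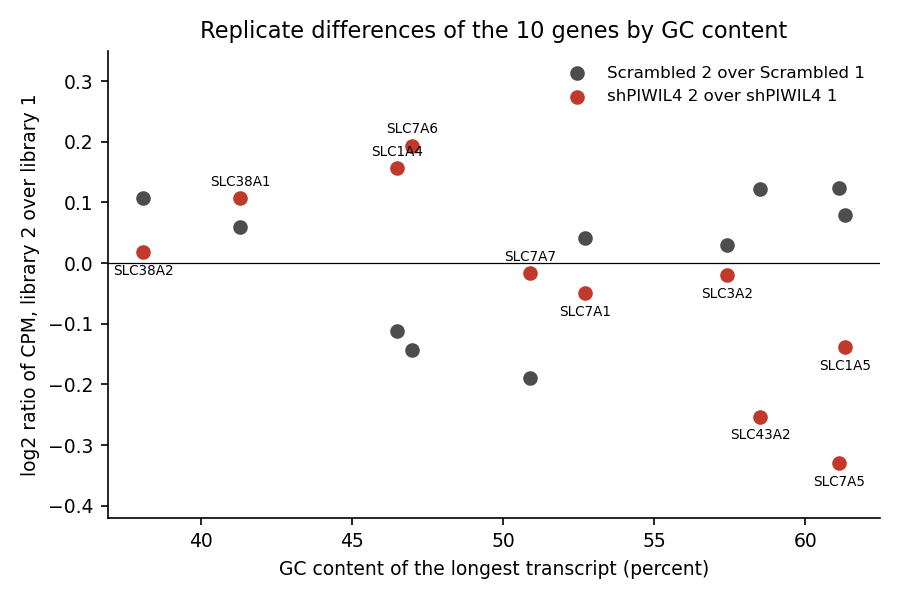
Log2 ratio of CPM of library 2 over library 1 for each of the 10 genes, within Scrambled (grey) and within shPIWIL4 (red), against the GC content of the longest transcript in percent. In shPIWIL4 the genes above 58% GC lie between -0.33 and -0.14, and SLC7A6 at 47.0% GC lies at 0.19.

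Other cell-surface amino acid transporter genes were mostly low and mostly lower in shPIWIL4. Of 28 listed, 13 could be tested, 2 rose and 8 fell, with a median log2 fold change of -0.59. That is 76.9% called, against 57.7% of all genes tested, where 28.7% were higher and 29.1% lower. Of the listed genes that could not be tested, 5 had no count in any library. SLC7A11, the cystine importer that also pairs with SLC3A2, rose from 3.06 and 3.44 TPM to 12.5 and 10.96 TPM. Its log2 fold change of 1.80 (SE 0.10, edgeR adjusted p = 1.5e-06) was larger than that of any of the 10 members. SLC1A3, a glutamate transporter of the family of SLC1A4 and SLC1A5, rose by 1.68 (SE 0.13), from 1.67 and 1.99 TPM to 5.90 and 6.24 TPM. SLC7A10, a carrier of small neutral amino acids that pairs with SLC3A2, fell by 1.10, and the arginine transporter gene SLC7A2 fell by 2.03 at a level under 1 TPM. SLC43A1, the paralog of SLC43A2, was named after its values were seen. It had means of 33.3 ± 0.81 and 34.4 ± 0.91 TPM (SD, n = 2 each) and a log2 fold change of 0.00095, and its sign differed with the scaling. With limma on TPM values 8 of these genes were tested, 2 higher and 4 lower, and with the stricter filter 7, also 2 and 4.

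Carriers that move amino acids across the lysosomal and other inner membranes were higher where called. Of 11 tested genes 6 rose and 0 fell, and the median was 0.31. That is 54.5% called, against 57.7% of all genes tested, where 28.7% were higher and 29.1% lower. SLC36A1, a proton-coupled amino acid carrier of lysosomes and the cell surface, rose from 23.7 TPM in both Scrambled libraries to 73.5 and 77.6 TPM, by 1.63 on the log2 scale (SE 0.09, edgeR adjusted p = 1.1e-06). SLC38A9, the lysosomal arginine sensor of mTORC1 and a member of the family of SLC38A1, rose by 0.76, opposite to SLC38A1 and SLC38A2. SLC38A7 and the cystine carrier gene CTNS rose by 0.83 and 0.74. Scaled by upper quartiles, 5 rose and 2 fell. The counts were 5 and 1 without shPIWIL4 library 1, and 8 and 1 without shPIWIL4 library 2.

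Genes of amino acid sensing upstream of mTORC1, listed with MTOR and others of mTORC1 itself, had 9 of 33 members higher and 4 lower. That is 39.4% called against 57.7% of all genes, with a median of 0.03. SESN3, LAMTOR2, MTOR and SEC13 rose by 1.39, 1.16, 0.94 and 0.71. They encode a sestrin, a subunit of the Ragulator complex, the kinase itself and a subunit of a complex that acts upstream of the Rag GTPases. The 4 genes that fell were GATSL3, C12orf66, C7orf60 and WDR59, named after their values were seen, by 2.45, 0.96, 0.83 and 0.60. Scaled by upper quartiles, 8 rose and 9 fell, and the counts were 10 and 8 without shPIWIL4 library 1. Among 29 genes of the amino acid response, 9 rose and 14 fell, which is 79.3% called, with a median of -0.31. STC2, DDIT4 and ATF5 fell by 3.27, 1.92 and 1.58, and SLC7A11, which stands in both lists, rose. ATF4, named for its role after its values were seen, had 466 and 453 TPM in Scrambled and 289 and 315 TPM in shPIWIL4. It fell by 0.65 (SE 0.09, edgeR adjusted p = 3.3e-04). The counts were 5 and 13 when Scrambled library 2 was left out, 5 and 14 when scaled by upper quartiles, and 5 and 12 under the stricter filter.

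Of 19 tested genes of glutamine, branched-chain amino acid, arginine and tryptophan use, 5 rose and 8 fell. That is 68.4% called against 57.7% of all genes, with a median of -0.07. ARG1, the arginase of the cytosol, fell by 4.14, and ARG2, the arginase of mitochondria, rose by 1.03. GOT2, a mitochondrial aminotransferase gene, rose by 0.90 and ASL, the argininosuccinate lyase gene, fell by 1.01. The counts were 6 and 5 when Scrambled library 2 was left out, and 4 and 5 with limma on log2(TPM + 1).

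**Figure D5:**
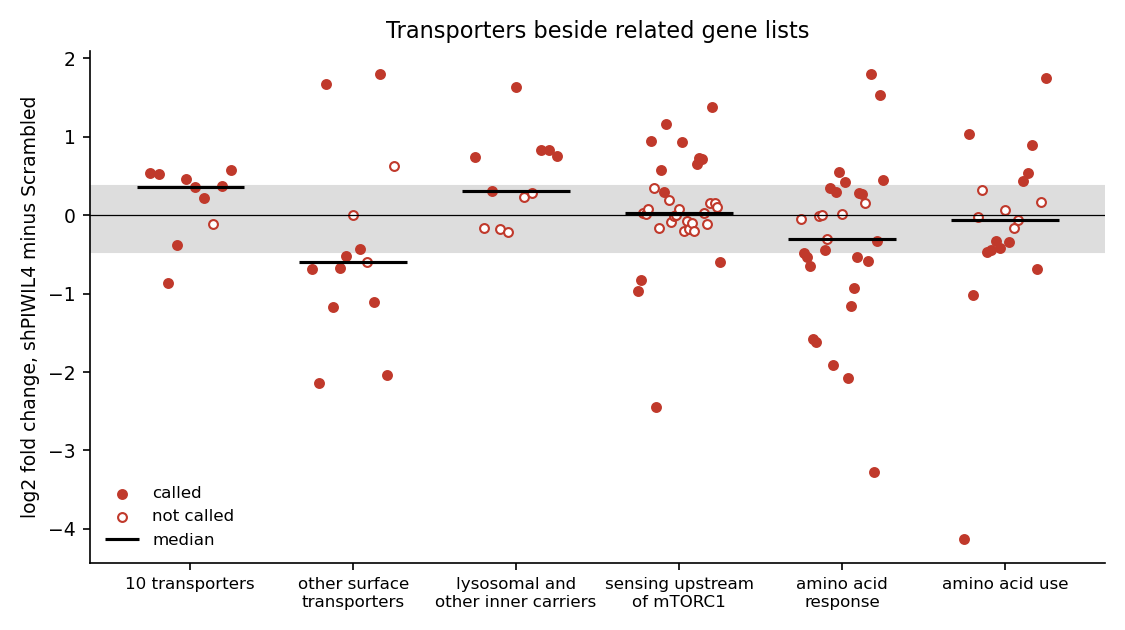
Log2 fold change (shPIWIL4 minus Scrambled) of every tested gene of the transporters and of 5 related lists, 1 point per gene, filled where called, with the list median as a black line and the quartiles of all genes as a grey band. The 10 transporters lie between -0.87 and 0.58 with a median of 0.37, and the other surface transporters have a median of -0.59.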

How the data were processed

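RNA-seq of 4 THP-1 libraries was analysed. The authors' deposited tables give, per the file headers, a raw read count per gene, plus FPKM and TPM columns, which are the authors' own scaling of that count. STAR, featureCounts, DESeq2 and the build hg19 are named, per the submitters' processing notes. For their versions, the annotation and the strand option, the sources used here give nothing. FPKM served only to recover gene lengths. Counts were fitted across all genes with edgeR 4.0.16 (R 4.3.3): filterByExpr (minimum count 10, minimum total 15), TMM factors, robust quasi-likelihood F test with group as the only term, Benjamini-Hochberg adjustment over 16108 genes, calls under 0.05. The standard error is the log2 fold change divided by the square root of F. Levels are deposited TPM values with SD over 2 libraries, and log2 fold changes come from the counts. The chi-square per gene between replicates was 7.89 (Scrambled) and 27.9 (shPIWIL4), more than sampling noise. The fit was tested on simulated data. Members and gene lists were chosen with earlier results of these data known. Named genes are PIWIL4, the members, and up to 4 called genes of each list with the smallest p. Cell type markers, genes that overlap or resemble a member (SLC7A6OS, SLC7A5P1, SLC7A5P2), SLC43A1, ATF4 and the sensing genes that fell are named outside that rule. Alternatives were limma 3.58.1 on log2(TPM + 1) or log2(TPM + 0.1) with a mean of at least 1 TPM, DESeq2 1.42.0, other scalings and filters (none, or a mean of 100 counts in each group), a replicate block and leaving out each library. The GC offset used GENCODE transcripts, which matched 92.0% of tested genes by name, and was chosen after seeing the data. Promoter sequences are RefSeq's (GRCh38.p14). The authors' table of size-factor-scaled counts was not used.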

Additional observations from a re-analysis of the deposited data

How the results depend on the processing

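Under 15 alternatives SLC1A4, SLC1A5, SLC3A2 and SLC38A1 kept their direction and their call. SLC38A2, SLC7A6 and SLC7A7 lost the call in 1 of them each, without Scrambled library 2. Leaving out 1 library at a time gave 4 to 7 members higher and 1 to 3 lower. The log2 fold changes then ranged from -0.40 to -0.32 for SLC38A2, from 0.28 to 0.48 for SLC7A6, from 0.49 to 0.70 for SLC7A7, from 0.20 to 0.25 for SLC7A1, from 0.23 to 0.48 for SLC43A2 and from -0.27 to 0.053 for SLC7A5, whose direction reversed without shPIWIL4 library 2. SLC7A1 lost its call with upper-quartile factors (0.093), library totals (0.17), a stricter filter (0.15) and the replicate block (0.21). SLC43A2 lost it with upper-quartile factors (0.24), library totals (0.31), a stricter filter (0.29), limma on log2(TPM + 1) (0.33) and on log2(TPM + 0.1) (0.39), and the replicate block (0.35). The cause was not tested. With the replicate block 8118 of all genes were called, 5 members higher and 2 lower. The labels do not say what shares a replicate number, and deviations of same-numbered libraries had a correlation of -0.312 over genes. With the numbers crossed, added after seeing the data, 11369 genes were called, 7 members higher and 2 lower. At 166 counts in the smallest library, SLC7A7 is the member most limited by depth.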
